A study of Mus musculus with 12 samples.

Results

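The 37 genes described here carry glucose into the cell, break it down by glycolysis or divert it into the pentose phosphate pathway, handle the lactate and pyruvate at the end of glycolysis, or belong to the hypoxia-inducible factor (HIF) pathway. They were taken by symbol from a count table of 35303 gene symbols, and all 37 were among the 17676 symbols that were tested. The table holds bulk RNA-seq of 12 libraries, 4 biological replicates in each of 3 groups. MDSC were myeloid-derived suppressor cells grown for 3 days with GM-CSF and IL-6 from the bone marrow of wild-type female C57BL/6 mice aged 6 to 10 weeks. MDSC-NP-Blk were azido-bearing MDSCs whose surface carried blank nanoparticles (NPs) of the polymer PLGA, attached by click chemistry, and CITED were azido-bearing MDSCs that carried PLGA NPs loaded with the mTOR inhibitor rapamycin. All 3 groups then spent 24 hours in medium with IL-6 at 40 ng/ml before lysis. The methods do not say whether the cells of the MDSC group bore azido groups, so that in a comparison with MDSC the azido label, the attachment procedure and the NPs cannot be told apart.

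The labels give CNS as the tissue, whereas the methods describe cultured marrow cells. All 9 MDSC markers that were checked (such as Itgam, Ly6g and S100a8) were detected. They summed to 617900 to 704500 normalized counts per library for MDSC, 854200 to 905600 for MDSC-NP-Blk and 666500 to 761500 for CITED. Of the 9, 8 were called higher in MDSC-NP-Blk than in MDSC. Of 10 neural markers, 7, Snap25, Gfap and Olig2 among them, were at 0 in all 12 libraries. The neural markers summed to 1773 to 2248 normalized counts per library. A normalized count is a count divided by the library size and its TMM factor and set on the scale of the mean library. Totals ranged from 20604809 to 37855478 counts per library, and the common biological coefficient of variation was 9.03%. Markers of other myeloid cells also differed between the groups. The 6 neutrophil granule and surface markers summed to 330300 to 338600 for MDSC, 415900 to 426800 for MDSC-NP-Blk and 214600 to 241800 in CITED, and the 7 macrophage markers to 13140 to 13910, 11670 to 13280 and 16900 to 18780, although 5 of these 7 were called lower in CITED than in MDSC. The 6 neutrophil markers did not move together, with 3 called higher and 2 lower in MDSC-NP-Blk against MDSC. In CITED against MDSC 1 of them was higher and 5 were lower. The dendritic cell markers summed to 11500 to 12390, 8098 to 8559 and 9951 to 10970, and the mast cell and basophil markers to 3823 to 4172, 4104 to 4765 and 2526 to 2702. Of the 6 dendritic cell markers, 1 was called higher and 2 lower in each comparison with MDSC. In bulk RNA, fewer cells of a type and less RNA per cell cannot be told apart, and the part of these shifts in the results below was not tested. The 5 erythroid markers and the T, B and NK cell markers summed to at most 90.6 and 164 normalized counts in any library.

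Glycolysis splits glucose into pyruvate in the cytosol, and myeloid cells lean on it heavily during activation and when oxygen is scarce. The pentose phosphate pathway branches off after the first step and yields NADPH and ribose. HIF-1 is a transcription factor whose alpha subunit, Hif1a, is hydroxylated by the Egln enzymes and then degraded when oxygen is present, and its targets include most glycolytic genes. The kinase mTOR, which rapamycin inhibits, is known to raise HIF-1α synthesis and glycolytic gene expression. RNA levels, which were measured here, do not report HIF-1α protein or glucose flux.

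Replicates of MDSC-NP-Blk were less alike than those of the other groups. The median within-group SD of the 37 genes, in log2 CPM, was 0.15 for MDSC-NP-Blk, 0.07 for MDSC and 0.07 in CITED, while over 11231 expressed genes it was 0.13, 0.10 and 0.11. MDSC-NP-Blk libraries 1 and 4 lay above their group mean and libraries 2 and 3 below it for 29 of the 37 genes, and the reverse held for 3 genes, G6pdx, Hif1a and Slc2a6. Among the other expressed genes, 20.6% showed the first arrangement and 22.5% the reverse. In MDSC these shares of the other genes were 9.77% and 10.1%, and in CITED 9.81% and 10.5%. The median deviation of the 37 genes from the group mean was 0.10, -0.08, -0.16 and 0.13 in libraries 1 to 4, with Aldoc spread the most (SD of 0.42). In the same 4 libraries, deviations over all expressed genes correlated with transcript length (Spearman's rho across genes of -0.42, 0.23, 0.35 and -0.14). The values describe these libraries. For MDSC libraries 1 to 4 rho was 0.05, -0.27, 0.11 and 0.18, and for the CITED libraries -0.24, 0.09, 0.16 and 0.01. With the length curve removed the first arrangement still held for 29 of the 37 genes of MDSC-NP-Blk. Against all 12 libraries instead of the own group, rho was positive for every MDSC library (0.21 to 0.33). It was negative for every CITED library (-0.32 to -0.18), and -0.40, -0.05, 0.09 and -0.24 for MDSC-NP-Blk libraries 1 to 4. Comparisons with MDSC can carry this trend, and length-corrected values are given below for some genes.

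**Figure D1:**
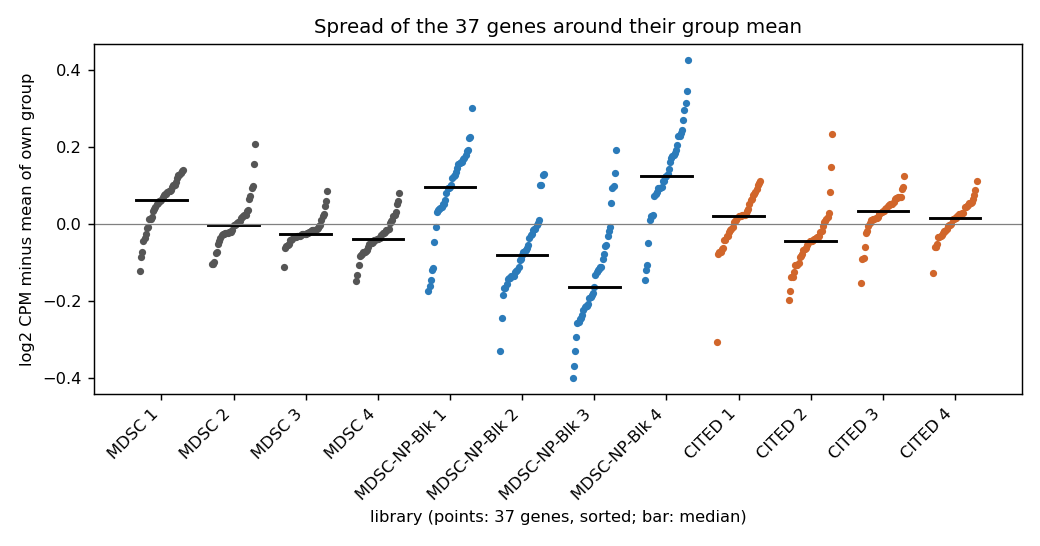
Deviation of each of the 37 genes (points, sorted within a library) from the mean of its own group in log2 CPM, for the 12 libraries, with a bar at the median. The medians of MDSC-NP-Blk libraries 1 and 4 lie at 0.10 and 0.13 and those of libraries 2 and 3 at -0.08 and -0.16, while those of the MDSC and CITED libraries lie within 0.07 of 0.

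The 37 genes together held 3.66 to 3.93% of all counts in the MDSC libraries, 3.66 to 4.63% for MDSC-NP-Blk and 3.19 to 3.37% for CITED. On this scale the CITED libraries lay below all 8 others. Relative to the TMM-scaled library size, which the fold changes use, the order of CITED and MDSC turned, with 3.22 to 3.49% for MDSC, 3.86 to 4.89% for MDSC-NP-Blk and 3.38 to 3.61% for CITED, and the MDSC and CITED ranges overlapped. The 15 glycolytic enzymes alone made up 2.61% ± 0.09 (SD, n = 4) of counts in MDSC, 2.94% ± 0.38 for MDSC-NP-Blk and 2.34% ± 0.06 for CITED, and 2.30, 3.11 and 2.497% of the TMM-scaled library size. On the scale of CPM (counts scaled to the effective library size) per kilobase of transcript, Gapdh was the highest of the 37 genes in each group, with means of 3405 for MDSC, 5339 for MDSC-NP-Blk and 4297 for CITED, followed by Aldoa with 1966, 3147 and 2673. Pfkm was the lowest, with 4.04, 3.24 and 1.86 on that scale.

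The first question was what attaching NPs changed. In MDSC-NP-Blk against MDSC, 26 of the 37 genes were higher, 5 were lower and 6 were not called at an adjusted p below 0.05 (edgeR's quasi-likelihood test with Benjamini-Hochberg adjustment over all genes). Of all genes tested, 38.6% were called, 19.9% higher and 18.6% lower. The largest log2 fold change of the 37 was that of Slc2a6, at 0.99, just short of the threshold of 1 that 4.74% of all genes passed (1.88% higher and 2.86% lower). The 4 libraries of the groups did not overlap for 26 of the genes, against 35.6% of all genes. The median log2 fold change was 0.32 over the 37 genes and -0.03 over all genes tested. Among the 7770 genes at least as abundant as the lowest of the 37, 38.8% were called higher and 27.5% lower, with a median of 0.06. Scaling to total counts alone lowered the median of all genes in this comparison by 0.26, and 15 of the 37 genes were then higher and 11 lower. Of all 17676 genes tested, 6107 were then lower and a smaller number higher. The median was then 0.06 over the 37 genes and -0.20 over the genes at least as abundant as the lowest of the 37.

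The second question was what rapamycin added to the NPs. In CITED against MDSC-NP-Blk the picture turned round, with 2 of the 37 genes higher (Taldo1 and Hif1a), 26 lower and 9 not called. Of all genes, 22% were called, 10.5% higher and 11.4% lower. The genes called with a log2 fold change of at least 1 were Slc2a3 and Ero1a, both lower, where 2.65% of all genes passed that threshold (0.651% higher and 2% lower). Libraries did not overlap for 21 of the 37 genes, against 21.2% of all genes. The median log2 fold change was -0.30 over the 37 genes and 0.00 over all genes tested. Among the genes at least as abundant as the lowest of the 37, 19.3% were called higher and 19% lower, with a median of 0.01. Scaling to total counts alone left the counts at 2 higher and 26 lower, with 1739 of all 17676 genes higher and 2132 lower.

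CITED against MDSC, the third comparison, combined both differences. Of the 37 genes, 11 were higher, 15 lower and 11 not called, where 44.5% of all genes were called, 22.2% in each direction. Slc2a6, higher, and Pfkm, lower, were called with a log2 fold change of at least 1, where 9.99% of all genes passed (3.28% higher and 6.7% lower). Libraries did not overlap for 26 of the genes, against 42.5% of all genes, and the median log2 fold change was -0.06 over the 37 genes and -0.05 over all genes tested. Among the genes at least as abundant as the lowest of the 37, 41.8% were called higher and 31.5% lower, with a median of 0.07. Scaling to total counts alone lowered the median of all genes by 0.27 here, and the counts became 10 higher and 26 lower. Of all 17676 genes tested, 2192 were then higher and 6323 lower. The comparisons with MDSC share the MDSC libraries, and those with MDSC-NP-Blk share the MDSC-NP-Blk libraries, so their fold changes are not independent and are given side by side.

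**Figure D2:**
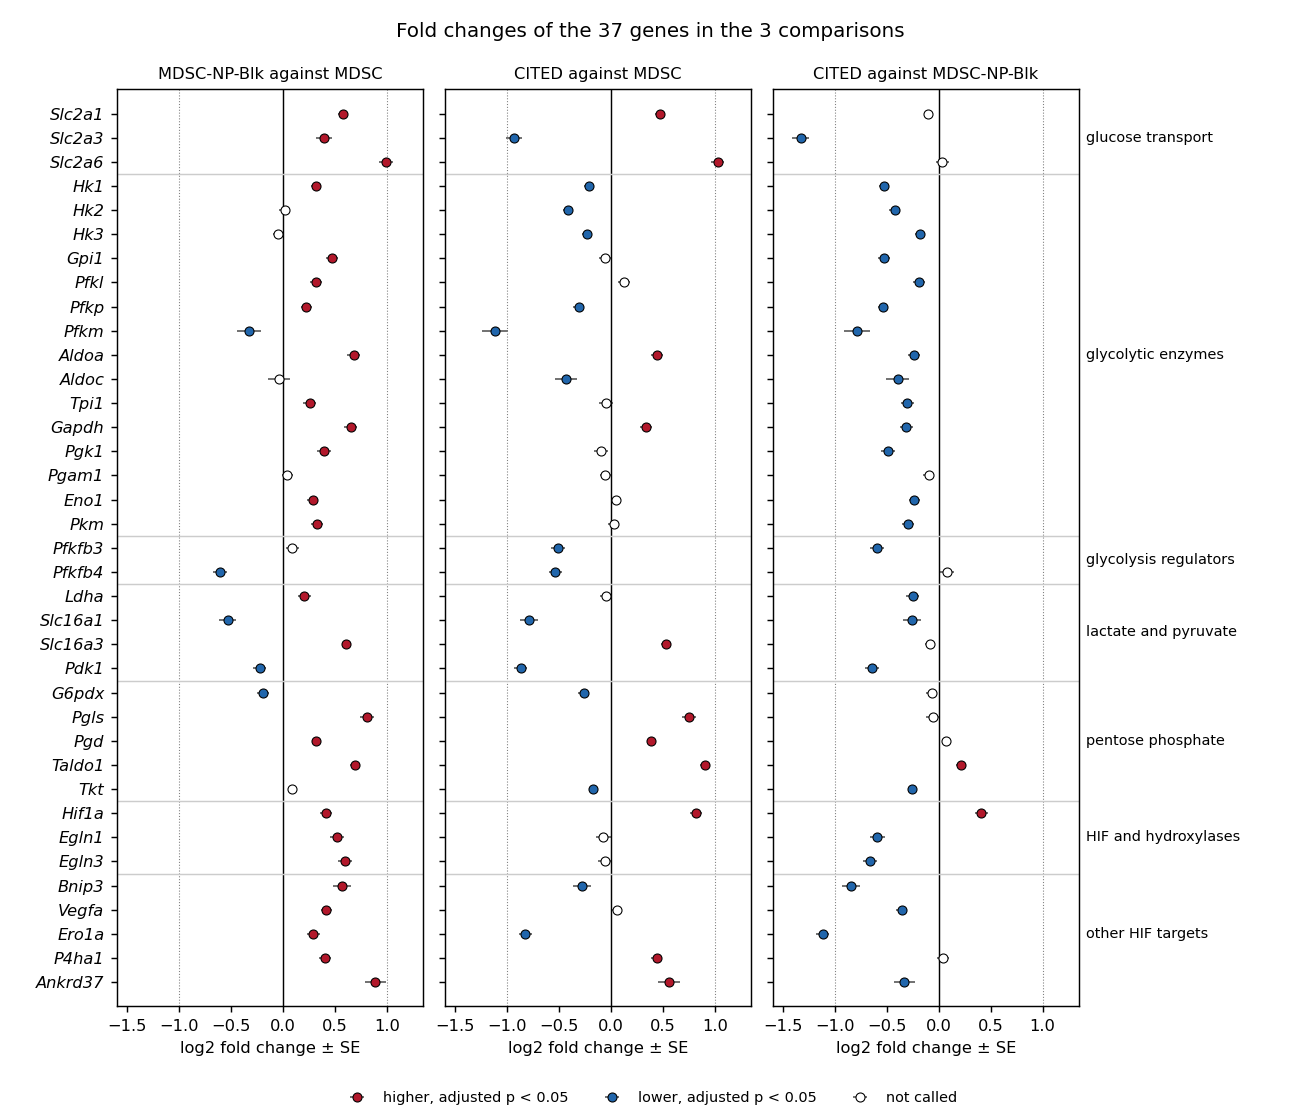
Log2 fold change ± SE (horizontal axis) of each of the 37 genes (vertical axis, grouped by role) in the 3 comparisons, 4 libraries per group, with red for genes called higher, blue for genes called lower and open circles for genes not called. Most points lie right of 0 for MDSC-NP-Blk against MDSC (median 0.32; with total-count scaling, the called genes Pfkp, Tpi1 and Ldha and the uncalled Hk2, Pgam1, Pfkfb3 and Tkt move left of 0) and left of 0 for CITED against MDSC-NP-Blk (median -0.30).

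Each count was also made without either pair of MDSC-NP-Blk libraries. Without libraries 2 and 3, 29 genes were higher and 3 lower in MDSC-NP-Blk against MDSC, with a median of 0.43, and without libraries 1 and 4 there were 24 and 5, with a median of 0.16. Over all genes tested these counts were 3337 higher and 3258 lower of 17388, and 3132 and 2770 of 17461. For CITED against MDSC-NP-Blk the corresponding counts were 2 higher and 27 lower (median -0.42), and 3 higher and 21 lower (median -0.13). Over all genes they were 1665 higher and 1794 lower, and 1983 higher and 2155 lower.

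The 3 glucose transporters moved in different ways. Slc2a3 (GLUT3, chr6:122704768-122778599, minus strand, GRCm39), a high-affinity transporter, had normalized counts of 15088, 13154, 13523 and 13600 for MDSC, 19872, 16022, 14658 and 22311 for MDSC-NP-Blk and 7064, 6562, 7869 and 7441 for CITED. Every CITED library was below all others, and the MDSC and MDSC-NP-Blk ranges overlapped. Slc2a3 was 2.52-fold lower in CITED than in MDSC-NP-Blk (log2 fold change -1.33 ± 0.08 (SE), adjusted p = 6.11e-15), the largest change of the 37 genes in that comparison, and it was also lower against MDSC (-0.94 ± 0.08). MDSC-NP-Blk was higher than MDSC (0.40 ± 0.08), a call lost with total-count scaling (0.13, adjusted p = 0.175).

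Slc2a6 (GLUT6), a transporter of intracellular membranes in myeloid cells, had normalized counts of 1364, 1612, 1394 and 1426 for MDSC, 2643, 3138, 3145 and 2594 for MDSC-NP-Blk and 2820, 2908, 3017 and 3052 for CITED. Both NP groups lay above all MDSC libraries, and the CITED values fell inside the MDSC-NP-Blk range. The fold changes were 1.99 for MDSC-NP-Blk and 2.04 for CITED against MDSC, whereas the difference between the NP groups was not called (log2 fold change 0.03 ± 0.06, adjusted p = 0.798). Slc2a1 (GLUT1), the widespread basal transporter, was also higher in both NP groups, with ranges of 10429 to 10781 for MDSC, 15216 to 16286 for MDSC-NP-Blk and 13872 to 15397 in CITED.

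Per length, the make-up of transporter RNA differed between groups. Slc2a3 supplied 53.2% ± 1.8 (SD, n = 4) of the counts per kilobase of the 3 transporters in MDSC, 48.1% ± 5.0 for MDSC-NP-Blk and 28.0% ± 0.8 for CITED. Slc2a1 supplied 36.4% ± 0.9, 37.6% ± 2.4 and 50.8% ± 0.2. The CITED shares of both genes lay outside the ranges of both other groups (two-sided exact permutation test, p = 0.0286 in each comparison with CITED, the smallest that 4 against 4 libraries allow), whereas between MDSC-NP-Blk and MDSC the exact p was 0.171 for Slc2a3 and 0.429 for Slc2a1. In level, Slc2a1 was not called between CITED and MDSC-NP-Blk (log2 fold change -0.10 ± 0.05, adjusted p = 0.112), although DESeq2 called it lower (adjusted p = 0.0495). Shares within 4 families were compared in 33 exact permutation tests, and 23 had p = 0.0286, which became 0.041 after Benjamini-Hochberg adjustment over the 33. The shares of a family add up to the whole, so these tests are not independent. Those of Slc16a1 and Slc16a3 repeat each other.

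Of the 15 glycolytic enzymes, 14 were lower in CITED than in MDSC-NP-Blk, with Pgam1 not called. In MDSC-NP-Blk against MDSC 10 were higher and 1 lower, and in CITED against MDSC 2 were higher, 6 lower and 7 not called. With total-count scaling the counts were 14 lower in the first of these, 3 higher and 5 lower in the second, and 1 higher and 13 lower in the last. Without MDSC-NP-Blk libraries 1 and 4, 10 of the 15 were lower in CITED than in MDSC-NP-Blk. With all libraries, 7770 genes had a mean of at least 300.1 normalized counts. Of these, 19.3% were called higher and 19% lower in CITED against MDSC-NP-Blk. The shares were 38.8% and 27.5% in MDSC-NP-Blk against MDSC, and 41.8% and 31.5% in CITED against MDSC.

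At the entry steps, the hexokinases phosphorylate glucose, Gpi1 isomerizes it and the phosphofructokinases commit it to glycolysis. Hk1 was higher in MDSC-NP-Blk than in MDSC (log2 fold change 0.31 ± 0.05, not called with total-count scaling at 0.05) and lower in CITED than in either, whereas Hk2 and Hk3 were not called between MDSC-NP-Blk and MDSC (0.01 and -0.05) and were lower in CITED than in both. With total-count scaling, Hk2 (-0.25) and Hk3 (-0.31) were called lower in MDSC-NP-Blk than in MDSC. After a correction for transcript length, Hk1 (-0.10, adjusted p = 0.076) and Hk2 (-0.10, adjusted p = 0.0945) were not called between CITED and MDSC, and Hk2 was higher in MDSC-NP-Blk than in MDSC (0.24). Hk3, the isoform typical of granulocytes, supplied 48.8% ± 1.2 of hexokinase counts per kilobase in MDSC, 43.7% ± 2.3 for MDSC-NP-Blk and 49.2% ± 0.5 for CITED. Hk1 supplied 39.0% ± 1.1, 44.9% ± 2.0 and 39.96% ± 0.4. Both shares of MDSC-NP-Blk lay outside the ranges of MDSC and CITED (exact permutation p = 0.0286 in each comparison). Gpi1 was 0.47 ± 0.06 higher on the log2 scale in MDSC-NP-Blk than in MDSC and 0.53 lower in CITED than in MDSC-NP-Blk (-0.53 ± 0.06), and CITED against MDSC was not called (-0.05, adjusted p = 0.495; -0.33 and called lower with total-count scaling).

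Pfkm, the muscle-type phosphofructokinase, had normalized counts of 365, 392, 414 and 421 for MDSC, 344, 281, 264 and 387 for MDSC-NP-Blk and 147, 214, 191 and 182 for CITED. All CITED values were below all others, and only MDSC-NP-Blk library 4 reached into the MDSC range. The log2 fold change was -1.12 ± 0.12 in CITED against MDSC (2.17-fold lower, adjusted p = 1.66e-09), -0.79 ± 0.12 against MDSC-NP-Blk and -0.33 ± 0.12 in MDSC-NP-Blk against MDSC. The last call was lost when MDSC replicate 3 or 4 or MDSC-NP-Blk replicate 2 or 3 was left out (-0.25 to -0.31), and without MDSC-NP-Blk libraries 2 and 3 together the value was -0.13 (adjusted p = 0.463). Pfkm supplied 2.41, 1.61 and 1.20% of phosphofructokinase counts per kilobase in MDSC, MDSC-NP-Blk and CITED, and Pfkp and Pfkl supplied the rest. The Pfkp share went from 54.4% ± 0.6 for MDSC and 53.3% ± 1.1 in MDSC-NP-Blk to 47.5% ± 0.8 in CITED, and that of Pfkl from 43.2% ± 0.7 and 45.1% ± 1.0 to 51.3% ± 0.8 (exact permutation p = 0.0286 for each gene in both comparisons with CITED). In level, Pfkp was lower in CITED than in MDSC and MDSC-NP-Blk (log2 fold change -0.31 and -0.54). Pfkl was lower in CITED than in MDSC-NP-Blk (-0.19, and -0.05 and not called without MDSC-NP-Blk libraries 1 and 4). Pfkl was not called between CITED and MDSC (0.13, adjusted p = 0.0721). There it was called higher after the length correction (0.23) and lower with total-count scaling (-0.15).

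**Figure D3:**
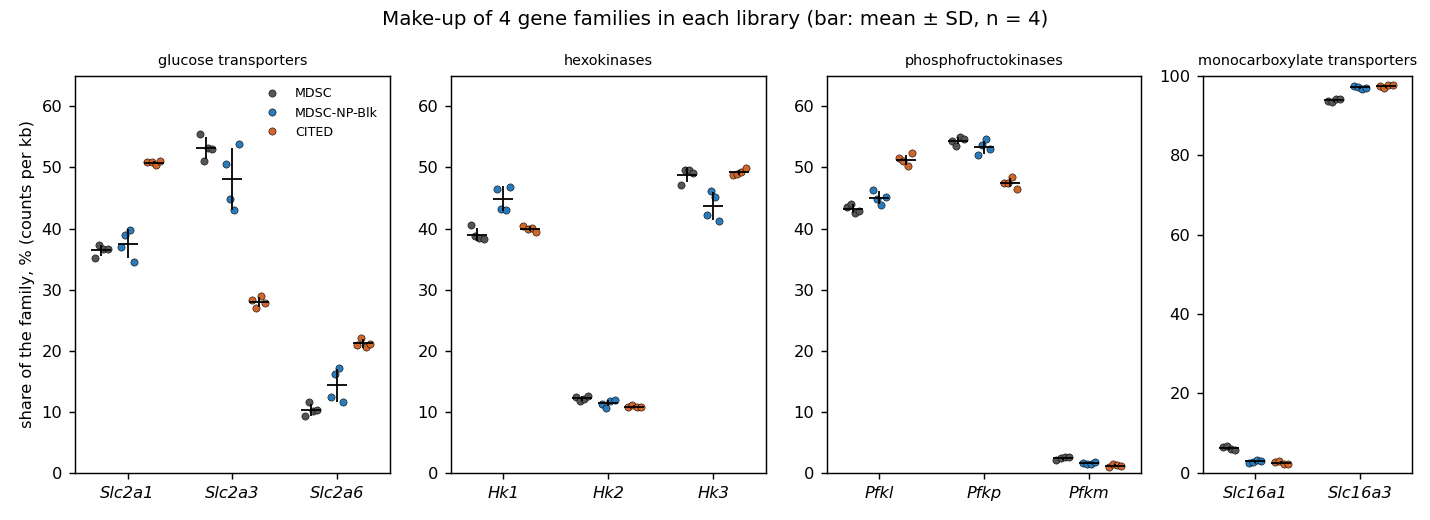
Share (vertical axis, %) of each isoform gene in the counts per kilobase of its family, for glucose transporters, hexokinases, phosphofructokinases and monocarboxylate transporters, with 1 point per library and a bar for the mean ± SD of 4 libraries. CITED stands apart for Slc2a3 (28.0%), Slc2a1 (50.8%), Pfkp (47.5%) and Pfkl (51.3%), and MDSC-NP-Blk for Hk1 (44.9%) and Hk3 (43.7%).

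In the middle of the pathway, aldolase splits the 6-carbon sugar that Pfk makes. Aldoa, the main aldolase here, had normalized counts of 77623, 74012, 71767 and 69569 for MDSC, 130891, 104473, 100700 and 132897 for MDSC-NP-Blk and 101211, 97326, 101422 and 98383 for CITED. Both NP groups lay above MDSC, and the ranges of CITED and MDSC-NP-Blk overlapped. Aldoa was lower in CITED than in MDSC-NP-Blk (log2 fold change -0.24 ± 0.06), a call lost without MDSC-NP-Blk libraries 1 and 4 (-0.04, adjusted p = 0.497). Aldoc, the brain-type isoform, was not called between MDSC-NP-Blk and MDSC (-0.04 ± 0.11). MDSC-NP-Blk libraries 1 and 4 (4506 and 4911) lay above all MDSC libraries and libraries 2 and 3 (2911 and 2774) below them. There Aldoc was called higher without MDSC-NP-Blk libraries 2 and 3 (0.27). It was called lower without libraries 1 and 4 (-0.44) and with total-count scaling (-0.30). Aldoc was lower in CITED than in MDSC (-0.43 ± 0.11) and in MDSC-NP-Blk (-0.40 ± 0.11). The latter call was lost with DESeq2 and without MDSC-NP-Blk libraries 1 and 4 (0.01).

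Gapdh, which makes the first NADH of the pathway and is often used as a reference gene, had normalized counts of 125423, 121948, 116658 and 112827 for MDSC, 209878, 168364, 159941 and 209425 for MDSC-NP-Blk and 156909, 136516, 155802 and 152446 for CITED. The 3 groups did not overlap. The log2 fold changes were 0.65 ± 0.06 for MDSC-NP-Blk and 0.34 ± 0.06 in CITED against MDSC, and -0.31 ± 0.06 in CITED against MDSC-NP-Blk, and with total-count scaling the difference between CITED and MDSC was not called (0.06, adjusted p = 0.405).

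From triose phosphate to pyruvate, Tpi1, Pgk1, Eno1 and Pkm were each higher in MDSC-NP-Blk than in MDSC, by 0.26 to 0.39 on the log2 scale, although with total-count scaling Tpi1 turned to -0.01 and Pgk1 (0.13), Eno1 (0.02) and Pkm (0.06) were not called. Each was lower in CITED than in MDSC-NP-Blk (-0.23 to -0.49) and not called between CITED and MDSC (-0.10 to 0.05). In CITED against MDSC all 4 were called lower with total-count scaling (-0.23 to -0.37), and Tpi1 (-0.21) and Pgk1 (-0.25) also after the length correction. Ldha, which turns pyruvate into lactate, followed the same course with smaller differences, at 0.20 ± 0.06, -0.25 ± 0.06 and -0.05 ± 0.06, and the first of these turned to -0.06 with total-count scaling. In MDSC-NP-Blk against MDSC, Tpi1 and Ldha were not called after the length correction (0.10 and 0.04) or without MDSC-NP-Blk libraries 1 and 4 (0.07 and 0.02), and without those libraries neither was called in CITED against MDSC-NP-Blk (-0.11 and -0.06). In CITED against MDSC, Ldha was called lower with total-count scaling (-0.32) and after the length correction (-0.21). Pgam1 was not called in any comparison (-0.10 to 0.04), although with total-count scaling it was lower in MDSC-NP-Blk than in MDSC (-0.22). Against MDSC it was also called lower in CITED with total-count scaling (-0.33) and after the length correction (-0.21). The length correction also made it lower in CITED than in MDSC-NP-Blk (-0.11, adjusted p = 0.0423).

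The bifunctional Pfkfb enzymes set the level of fructose 2,6-bisphosphate, an activator of phosphofructokinase. Pfkfb3, the form with the strongest kinase activity, had normalized counts of 3135, 2658, 2880 and 2781 for MDSC, 3240, 2873, 2790 and 3283 for MDSC-NP-Blk and 2082, 1782, 2146 and 2046 for CITED. CITED lay below both other groups, which overlapped. Pfkfb4 had 1791, 1710, 1950 and 1902 for MDSC, 1087, 1211, 1248 and 1268 for MDSC-NP-Blk and 1287, 1181, 1327 and 1279 for CITED. Its course differed from that of Pfkfb3, with both NP groups below MDSC (log2 fold change -0.61 ± 0.07 and -0.54 ± 0.07) and overlapping each other (0.08 ± 0.07, adjusted p = 0.48).

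Among the genes that handle lactate and pyruvate, the proton-coupled lactate exporter Slc16a3 (MCT4) and the transporter Slc16a1 (MCT1) moved in opposite directions. Slc16a3 had normalized counts of 13734, 13215, 13611 and 13154 for MDSC, 21020, 20452, 18965 and 21524 for MDSC-NP-Blk and 19615, 17719, 20032 and 19954 for CITED, so that both NP groups lay above MDSC. Slc16a1 had 925, 924, 841 and 781 for MDSC, 534, 583, 640 and 639 for MDSC-NP-Blk and 524, 555, 471 and 459 for CITED, so that both NP groups lay below MDSC. The share of Slc16a1 in the counts per kilobase of the pair was 6.19% for MDSC, 2.91% for MDSC-NP-Blk and 2.60% for CITED (exact permutation p = 0.0286 for each NP group against MDSC).

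Pdk1, a HIF target whose kinase shuts pyruvate dehydrogenase, had normalized counts of 3904, 3657, 3623 and 3381 for MDSC, 3216, 2947, 2732 and 3573 for MDSC-NP-Blk and 1951, 1936, 2073 and 2017 for CITED. The CITED libraries were below all others, and MDSC-NP-Blk library 4 overlapped MDSC. The log2 fold change was -0.87 ± 0.06 in CITED against MDSC (adjusted p = 1.27e-13), -0.64 ± 0.06 against MDSC-NP-Blk and -0.23 ± 0.06 in MDSC-NP-Blk against MDSC. The last of these was not called without MDSC-NP-Blk libraries 2 and 3 (-0.12, adjusted p = 0.144) or after a correction for transcript length (-0.10, adjusted p = 0.215).

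The pentose phosphate genes did not share 1 direction. G6pdx, the entry enzyme, was lower in both NP groups than in MDSC (log2 fold change -0.19 ± 0.05 in MDSC-NP-Blk and -0.26 ± 0.05 in CITED), although neither was called after a correction for transcript length (-0.04 in each). The enzymes that follow it were higher in both. Pgls, the lactonase, had normalized counts of 1250, 1196, 1185 and 1220 for MDSC, 2302, 1932, 2008 and 2259 for MDSC-NP-Blk and 2172, 2067, 1835 and 2102 for CITED. Pgd, which makes NADPH again further on, was higher by 0.32 ± 0.04 in MDSC-NP-Blk (0.06 and not called with total-count scaling) and 0.39 ± 0.04 in CITED against MDSC. Neither Pgls nor Pgd was called between CITED and MDSC-NP-Blk (-0.05 and 0.07).

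In the non-oxidative branch, which links pentoses back to glycolysis, the transaldolase Taldo1 had normalized counts of 10802, 11448, 10255 and 10319 for MDSC, 18436, 16982, 16224 and 17528 for MDSC-NP-Blk and 21536, 19411, 19188 and 19955 for CITED. The groups stood in the order MDSC, MDSC-NP-Blk, CITED with no overlap. The log2 fold changes were 0.69 ± 0.05 in MDSC-NP-Blk against MDSC, 0.90 ± 0.05 in CITED against MDSC (adjusted p = 4.97e-17) and 0.21 ± 0.05 in CITED against MDSC-NP-Blk (adjusted p = 0.00133). The transketolase Tkt was not called in MDSC-NP-Blk against MDSC (0.08 ± 0.04) and was lower in CITED than in MDSC (-0.17 ± 0.04) and in MDSC-NP-Blk (-0.26 ± 0.04). The first of these depended on the setting. It was called higher by DESeq2 (0.07) and after the length correction (0.09), and lower with total-count scaling (-0.18).

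**Figure D4:**
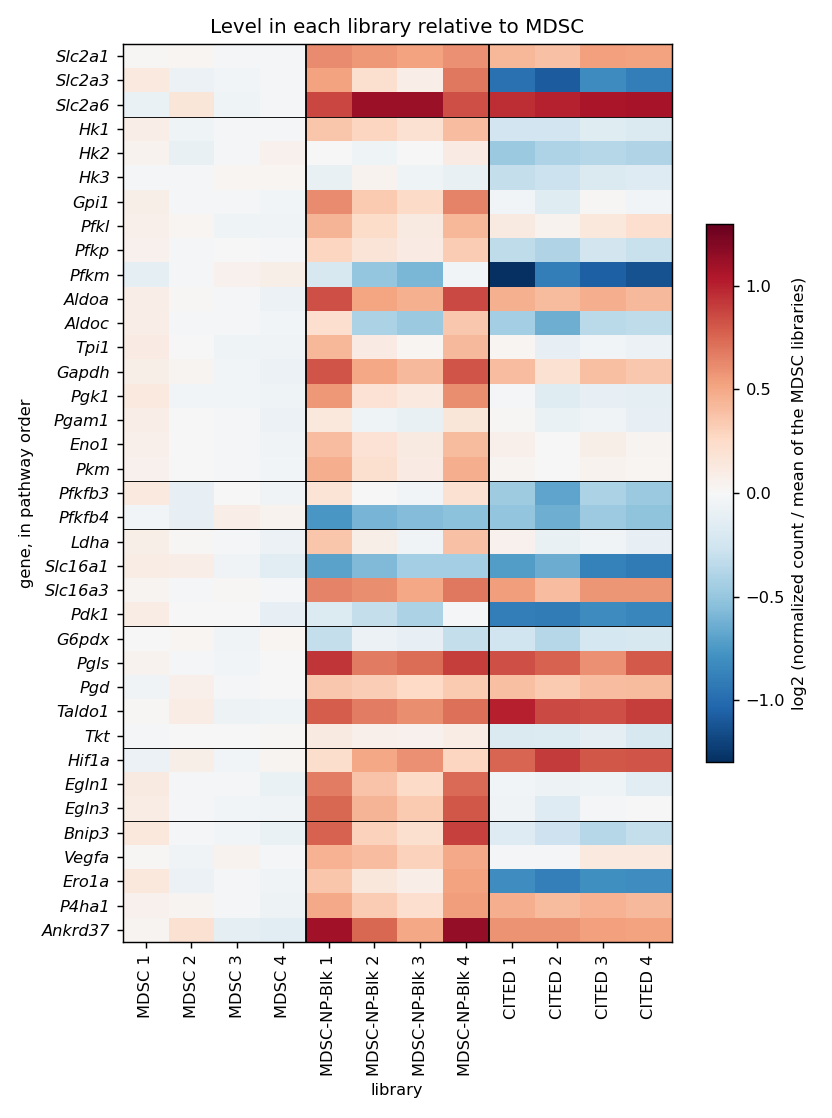
Log2 ratio of the normalized count in each of the 12 libraries (columns) to the mean of the 4 MDSC libraries, for the 37 genes in pathway order (rows), red for higher and blue for lower. Slc2a3, Pfkm, Pdk1 and Ero1a are blue in all CITED libraries, Slc2a6, Pgls and Taldo1 are red in all 8 libraries with NPs, and most glycolytic enzymes are darker red in MDSC-NP-Blk libraries 1 and 4 than in 2 and 3.

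Hif1a was higher in MDSC-NP-Blk than in MDSC along with the hydroxylases and all 5 other HIF targets, whereas in CITED against MDSC-NP-Blk Hif1a was higher and 6 of those 7 genes were lower. Hif1a (chr12:73948149-73996321, plus strand, GRCm39) had normalized counts of 8120, 8983, 8340 and 8731 for MDSC, 10015, 12126, 12905 and 10394 for MDSC-NP-Blk and 14463, 15987, 14905 and 15045 for CITED. The 3 groups did not overlap, with CITED the highest. The log2 fold change was 0.82 ± 0.06 in CITED against MDSC (1.77-fold, adjusted p = 7.02e-14), 0.41 ± 0.06 in MDSC-NP-Blk against MDSC and 0.41 ± 0.06 in CITED against MDSC-NP-Blk (adjusted p = 1.51e-06). Within MDSC-NP-Blk, the libraries with more Hif1a RNA (2 and 3) were those with less RNA of most glycolytic genes.

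Egln1 and Egln3, which encode HIF prolyl hydroxylases and are themselves HIF targets, were higher in MDSC-NP-Blk than in both other groups. Egln1 had normalized counts of 3948, 3567, 3594 and 3437 for MDSC, 5761, 4705, 4330 and 6051 for MDSC-NP-Blk and 3550, 3465, 3495 and 3312 for CITED. Egln3 had 17862, 16469, 16206 and 16087 for MDSC, 27869, 22594, 21040 and 29246 for MDSC-NP-Blk and 16117, 14816, 16335 and 16569 for CITED. For both genes MDSC-NP-Blk lay above all other libraries, and CITED against MDSC was not called (log2 fold change -0.07 and -0.06, adjusted p = 0.419 and 0.487), although with total-count scaling both were called lower (-0.35 and -0.34).

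Bnip3, a mitophagy receptor, had normalized counts of 8196, 7325, 7291 and 7028 for MDSC, 12680, 9157, 8628 and 13773 for MDSC-NP-Blk and 6645, 6211, 5781 and 6006 for CITED. The groups did not overlap, with MDSC-NP-Blk the highest and CITED the lowest. The log2 fold change was 0.57 ± 0.09 in MDSC-NP-Blk against MDSC and -0.84 ± 0.09 in CITED against MDSC-NP-Blk (adjusted p = 3.06e-09). In CITED against MDSC it was -0.28 ± 0.09 (adjusted p = 0.00987), a call that DESeq2 did not make (adjusted p = 0.0953).

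Ero1a, an oxidase that helps proteins fold in the endoplasmic reticulum, had normalized counts of 45854, 39484, 40856 and 40397 for MDSC, 53453, 46031, 44364 and 59921 for MDSC-NP-Blk and 23841, 22441, 23998 and 23723 for CITED. All CITED libraries lay far below the others, and MDSC library 1 overlapped MDSC-NP-Blk. Ero1a was 2.17-fold lower in CITED than in MDSC-NP-Blk (log2 fold change -1.12 ± 0.06, adjusted p = 1.03e-15) and 1.77-fold lower than in MDSC (-0.83 ± 0.06). Without MDSC-NP-Blk libraries 1 and 4, Slc2a3 was the 1 gene of the 37 still called with a log2 fold change of at least 1 between CITED and MDSC-NP-Blk.

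The 3 other HIF targets were not called lower in CITED than in MDSC. Ankrd37, a HIF target of little-known function, had normalized counts of 470, 528, 423 and 417 for MDSC, 980, 770, 649 and 1013 for MDSC-NP-Blk and 688, 690, 665 and 660 for CITED, so that both NP groups lay above MDSC. P4ha1, a collagen prolyl hydroxylase subunit, was higher in both NP groups as well (log2 fold change 0.40 and 0.44) and not called between them. The growth factor gene Vegfa was higher in MDSC-NP-Blk than in MDSC (0.41 ± 0.05) and not called in CITED against MDSC (0.06, adjusted p = 0.406), but with total-count scaling it was lower there (-0.22, adjusted p = 0.000902).

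HIF-1 binds DNA at short elements whose core is ACGTG or GCGTG, and the 300 bases upstream of the canonical transcription start (GENCODE M39, GRCm39) were searched for both, on both strands, with CACGTG counted on each strand. Of the 37 promoters, 28 (75.7%) held at least 1 match, against 53.6% of the 15043 tested protein-coding genes. ACGTG was in 15 (40.5%, against 22.9%) and GCGTG in 23 (62.2%, against 41.6%), with a similar CG count in both sets (median 13 and 12 per promoter). Matches are letters, not measured binding, and 9 windows, those of Slc2a3, Pdk1 and Vegfa among them, held no match. The windows of 4 genes are shown because, among Hif1a, the hydroxylases and the 5 other HIF targets, they had the lowest fold changes in CITED against MDSC-NP-Blk. They are printed 5′ to 3′ on the strand of the gene, with matches of either motif in capitals (CACGT and CACGC are the motifs on the opposite strand). They are Ero1a (chr14:45556037-45556336, minus strand), Bnip3 (chr7:138511254-138511553, minus strand), Egln3 (chr12:54250674-54250973, minus strand) and Egln1 (chr8:125676866-125677165, minus strand).
Ero1a: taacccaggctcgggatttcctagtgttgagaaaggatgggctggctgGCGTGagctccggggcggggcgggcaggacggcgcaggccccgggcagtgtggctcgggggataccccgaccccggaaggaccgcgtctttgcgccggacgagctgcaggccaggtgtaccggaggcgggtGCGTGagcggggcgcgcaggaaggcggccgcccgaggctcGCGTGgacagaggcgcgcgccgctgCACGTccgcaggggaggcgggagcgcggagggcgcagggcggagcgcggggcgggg
Bnip3: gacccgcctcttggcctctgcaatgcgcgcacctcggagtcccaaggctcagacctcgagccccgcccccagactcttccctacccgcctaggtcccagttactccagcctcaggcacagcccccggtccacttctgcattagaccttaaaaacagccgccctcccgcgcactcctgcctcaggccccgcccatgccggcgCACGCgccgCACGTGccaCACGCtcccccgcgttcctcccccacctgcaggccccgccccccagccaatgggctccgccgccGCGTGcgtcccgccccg
Egln3: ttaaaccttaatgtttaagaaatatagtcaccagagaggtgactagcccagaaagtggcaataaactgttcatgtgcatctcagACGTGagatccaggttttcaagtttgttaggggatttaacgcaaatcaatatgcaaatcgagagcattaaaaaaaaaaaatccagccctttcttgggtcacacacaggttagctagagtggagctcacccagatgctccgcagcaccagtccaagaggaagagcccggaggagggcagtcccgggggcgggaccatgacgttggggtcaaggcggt
Egln1: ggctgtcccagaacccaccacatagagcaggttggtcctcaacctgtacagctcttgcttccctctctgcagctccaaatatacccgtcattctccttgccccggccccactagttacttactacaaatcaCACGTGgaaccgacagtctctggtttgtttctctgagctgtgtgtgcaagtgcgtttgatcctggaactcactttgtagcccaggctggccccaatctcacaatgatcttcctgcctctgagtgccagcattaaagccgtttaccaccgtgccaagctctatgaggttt
Ero1a held 1 match of ACGTG and 3 of GCGTG in a window with 41 CG, and Bnip3 held 2 and 3 with 29 CG. Egln3 held 1 of ACGTG with 9 CG, and Egln1 held 2 of ACGTG, both in 1 CACGTG, with 7 CG.

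Other genes of these pathways, taken from lists by pathway, are given by their counts. Among the 7770 genes with a mean of at least 300.1 normalized counts, 38.8% were called higher and 27.5% lower in MDSC-NP-Blk against MDSC. These shares were 19.3% and 19% in CITED against MDSC-NP-Blk, and 41.8% and 31.5% in CITED against MDSC. The lists also hold less abundant genes, and whether the counts of any list differ from these shares was not tested. Of 25 further HIF targets tested, 12 were higher and 2 lower in MDSC-NP-Blk against MDSC (median 0.21), 1 was higher and 16 lower in CITED against MDSC-NP-Blk (median -0.37), and 5 were higher and 11 lower in CITED against MDSC (median -0.16). The 4 with the lowest p in CITED against MDSC did not share a direction. Tfrc, the transferrin receptor, had ranges of 5788 to 6285 for MDSC, 2321 to 2534 for MDSC-NP-Blk and 904 to 1092 in CITED (log2 fold change -2.56 ± 0.06 in CITED against MDSC, adjusted p = 6.24e-27). The adenylate kinase Ak4 was lower in CITED than in MDSC and MDSC-NP-Blk (-1.09 and -0.99), as was Selenbp1 (-2.06 and -2.51). Trf, which encodes transferrin, was higher in MDSC-NP-Blk and CITED than in MDSC (0.89 and 0.67).

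Of 12 genes that regulate HIF, 5 were higher and 3 lower in MDSC-NP-Blk against MDSC, 2 higher and 3 lower in CITED against MDSC-NP-Blk, and 5 higher and 4 lower in CITED against MDSC. Hif3a, which encodes a HIF alpha subunit with inhibitory forms, had ranges of 91.6 to 134 normalized counts in MDSC, 48.0 to 163 for MDSC-NP-Blk and 4.84 to 6.66 in CITED, a log2 fold change of -4.37 ± 0.35 in CITED against MDSC (adjusted p = 1.04e-12). The CITED values lay near the floor of 3 counts, so the direction is clearer than the size of this fold change. Elob, a subunit of the ligase that ubiquitinates hydroxylated HIF, and the hydroxylase Egln2 were higher in CITED than in MDSC (0.72 and 0.53), and the ligase scaffold Cul2 was lower (-0.47).

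The remaining lists hold genes around the core pathways. Of 19 further genes of glycolysis and gluconeogenesis, 2 were higher and 7 lower in MDSC-NP-Blk against MDSC, 2 higher and 5 lower in CITED against MDSC-NP-Blk, and 3 higher and 7 lower in CITED against MDSC. Adpgk, an ADP-dependent glucokinase, was lower in CITED than in MDSC (-0.97 ± 0.05, adjusted p = 3.53e-17) and in MDSC-NP-Blk than in MDSC (-0.42 ± 0.05). Of 14 genes of pyruvate import into mitochondria and its use there, 2 were higher and 6 lower in each comparison with MDSC. In CITED against MDSC-NP-Blk 1 was higher and 2 were lower. The importer genes Mpc1 and Mpc2 were not called in any comparison. Pdp2, a phosphatase that reactivates pyruvate dehydrogenase, was lower in both NP groups (-0.77 and -0.92 against MDSC). Of 8 further genes of the pentose phosphate pathway and ribose supply, 3 were lower in MDSC-NP-Blk against MDSC, 1 in CITED against MDSC-NP-Blk and 4 in CITED against MDSC, and the others were not called, with Prps1, a ribose-phosphate pyrophosphokinase, at -0.44, -0.45 and -0.89 in that order.

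Several of the 37 genes share sequence with processed pseudogenes, and Salmon divides reads that fit more than 1 transcript by estimation. In 31-base words of the canonical transcript, 86.0% of Aldoa, 84.1% of Gapdh, 68.3% of Pgk1, 68.1% of Eno1, 50.6% of Pkm, 41.6% of Pgam1 and 39.3% of Ldha also occur in other annotated genes. For most of them few counts went to pseudogenes that share at least 50% of their own words with the gene, such as 95 counts for Pgk1 and 278 for Pkm over all libraries. Gapdh and Pgam1 were the exceptions. The 39 Gapdh pseudogene symbols held 6.63 to 9.64% as many counts as Gapdh in MDSC, 3.07 to 5.80% for MDSC-NP-Blk and 3.59 to 7.69% in CITED. Pgam1-ps2, all of whose words occur in Pgam1, held 7.15, 8.42, 9.31 and 7.81% as many counts as Pgam1 in the MDSC libraries, 0, 2.06, 2.63 and 1.24% for MDSC-NP-Blk and 0, 0, 0.879 and 0% for CITED. With these counts added, Pgam1 was called lower in CITED than in MDSC (log2 fold change -0.17, adjusted p = 0.00547, against -0.06 and 0.403 without them), and none of the 37 that was called lost its call. Aldoa shares its words mainly with Gm57854 and Eno1 with Eno1b, annotated as protein-coding genes that held 68 and 1204 counts in all.

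**Figure D5:**
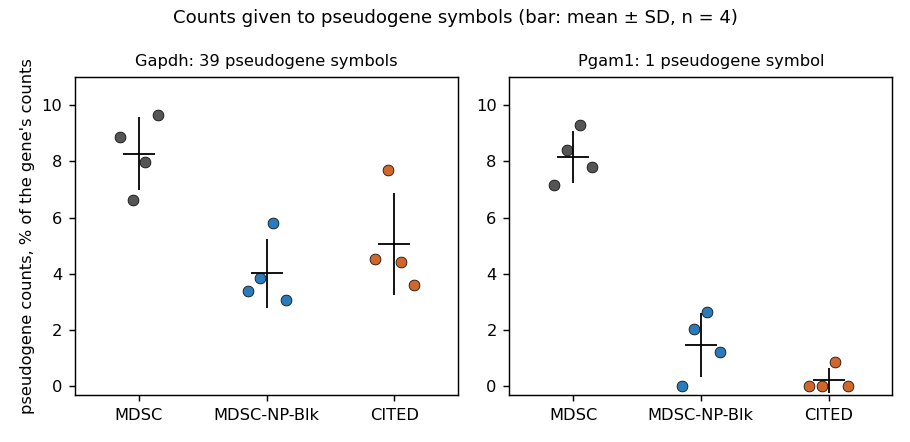
Counts assigned to pseudogene symbols as a percentage of the counts of Gapdh (left, 39 symbols) and Pgam1 (right, 1 symbol), 1 point per library with the mean ± SD of 4 libraries. The MDSC libraries lie at 6.63 to 9.64% for Gapdh and 7.15 to 9.31% for Pgam1, and for Pgam1 all NP-bearing libraries lie at or below 2.63%.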

How the data were processed

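Poly(A)-enriched RNA was sequenced from 12 libraries. The authors deposited a table of whole-number counts by gene symbol, from Salmon 1.4.0 against GENCODE transcripts of GRCm39 with decoys and summed per gene in R 4.3.2, per the submitters' processing notes and the methods, and did not normalize or filter them. The GENCODE release and whether counting used strand are not given in the sources used here. Conditions were read from the sample titles. An entry without a symbol held 0 counts and was left out.

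Genes whose counts summed to 2 or more were fitted with edgeR 4.0.16 in R 4.3.3, using TMM factors and glmQLFit and glmQLFTest with group as the only term, over all 12 libraries. P-values were adjusted by Benjamini-Hochberg over the 17676 genes tested, and a gene was called at an adjusted p below 0.05, or, where stated, also with a log2 fold change of 1 or more in either direction. Log2 CPM values used a prior count of 2. Fold changes carry standard errors from this model. P-values measure the spread between the submitters' biological replicates, and whether these came from separate animals was not stated. A fixed floor of 3 counts in a library, with totals of 20604809 to 37855478, marked values near the limit of measurement. It was not a filter for the test.

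Shares within gene families used counts per canonical transcript length (GENCODE M39), compared with a two-sided exact permutation test. Shared sequence was counted in 31-base words. No pairing by the replicate numbers in the titles is stated in the sources, so the libraries were not treated as paired. Deviations of same-numbered libraries correlated at -0.054 to 0.099, which does not exclude a pairing. Values of every library are given for genes called with a log2 fold change of 0.58 or more in any comparison, and up to 4 genes of each further list are named by lowest p. The 37 genes and all lists were chosen with earlier results of these data known, so nothing here is independent support for those results. Alternatives were DESeq2 1.42.0, size factors of DESeq2, upper-quartile or no composition factors, other filters, a transcript-length correction, added pseudogene counts, a replicate block, the 8 libraries of a comparison alone, and each replicate left out. Scripts were tested on simulated counts.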

Additional observations from a re-analysis of the deposited data

Results flagged for a closer look

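In 144 groups of 4 libraries, 4 had 1 library whose gap to its nearest neighbour exceeded Dixon's 95% critical value for groups of 4, and chance alone marks about 1 in 20 groups. In MDSC, replicate 1 was the highest for Aldoc, at 4087.87 normalized counts with the other 3 at 3767 to 3800. The same library was the highest for Pgk1, at 51997.3 normalized counts with the others at 45753 to 46563. It was also the lowest for the share of Hk3 in hexokinase counts per kilobase, at 47.073% with the others at 49.2 to 49.6%. In CITED, replicate 2 had the highest share of Hk2 in that family, at 11.187% with the others at 10.7 to 10.8%.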

How the results depend on the processing

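Total-count scaling changed the most results. It gave 26 genes lower and 5 past the fold threshold in CITED against MDSC, and 15 higher and 11 lower in MDSC-NP-Blk against MDSC. It turned Pfkl (-0.145), Eno1 (-0.227), Pkm (-0.247) and Vegfa (-0.217) in CITED against MDSC, and Hk2 (-0.249), Pfkp (-0.039), Tpi1 (-0.0062), Pgam1 (-0.221), Pfkfb3 (-0.175), Ldha (-0.0598) and Tkt (-0.178) in MDSC-NP-Blk against MDSC, all on the log2 scale. By construction it omits the TMM factor, which was 1.12 to 1.15 in MDSC and 0.92 to 0.95 in the other libraries. The length correction left 2 genes lower in MDSC-NP-Blk against MDSC and turned Eno1 (-0.034), Pkm (-0.0324) and Egln1 (0.0449) in CITED against MDSC, Pgam1 (-0.0937) in MDSC-NP-Blk against MDSC and G6pdx (0.0004) in CITED against MDSC-NP-Blk. Added pseudogene counts turned Pgam1 (-0.0529) and fitting the 8 libraries alone turned Hk2 (-0.0023), both in MDSC-NP-Blk against MDSC. With upper-quartile factors 1 gene passed the fold threshold there. DESeq2 did not call Bnip3 in CITED against MDSC (adjusted p = 0.0953) or Aldoc in CITED against MDSC-NP-Blk (adjusted p = 0.0836). The cause was not tested for any of these. With the TMM-scaled library size as denominator, chosen after seeing the data, the share held by the 37 genes in CITED minus that in MDSC turned from negative to 0.203 percentage points, and that of the glycolytic enzymes to 0.195.

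Leaving out pairs of MDSC-NP-Blk libraries was chosen after seeing the data. Without libraries 2 and 3, 3 genes were lower and 1 passed the fold threshold in MDSC-NP-Blk against MDSC, Aldoc turned there (0.271), and G6pdx (0.0459) and P4ha1 (-0.0761) turned in CITED against MDSC-NP-Blk. Without libraries 1 and 4, 1 gene passed the fold threshold in each comparison with MDSC-NP-Blk. Hk2 (-0.0299), Pgam1 (-0.0744) and Pfkfb3 (-0.0164) then turned in MDSC-NP-Blk against MDSC, and Slc2a6 (-0.0904), Aldoc (0.0079), Pgam1 (0.0191) and Pgls (0.0538) in CITED against MDSC-NP-Blk.

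With each replicate left out in turn, 1 to 2 genes passed the fold threshold in CITED against MDSC (1 without MDSC replicate 1) and 0 to 1 in MDSC-NP-Blk against MDSC (1 without MDSC replicate 2 or MDSC-NP-Blk replicate 1 or 4). In MDSC-NP-Blk against MDSC, values that changed sign ranged from -0.0221 to 0.0356 for Hk2, -0.194 to 0.0823 for Aldoc and -0.0037 to 0.0819 for Pgam1. In CITED against MDSC-NP-Blk they ranged from -0.0115 to 0.0777 for Slc2a6 and -0.0162 to 0.0905 for P4ha1, and the difference in Hk3 share between CITED and MDSC from -0.257 to 0.581 percentage points. None of these was called with all replicates. Of called genes, Pfkm (without MDSC replicate 3 or 4 or MDSC-NP-Blk replicate 2 or 3) and Ldha (without MDSC-NP-Blk replicate 4) lost the call in MDSC-NP-Blk against MDSC. In CITED against MDSC-NP-Blk, Pfkl, Aldoc, Slc16a1 and Ankrd37 each lost it without at least 1 replicate, among them MDSC-NP-Blk replicate 4 for all 4.

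With the replicate number as a block, 12 genes were higher and 16 lower in CITED against MDSC, 26 and 5 in MDSC-NP-Blk against MDSC, and 2 and 26 in CITED against MDSC-NP-Blk. Over all 17676 genes the counts were 3925 and 3903, 3568 and 3359, and 2022 and 2160. The block removed no call, and Pfkl (adjusted p = 0.0225) and Pgk1 (adjusted p = 0.0316) were added in CITED against MDSC. The sources do not state a pairing. Deviations of libraries that shared a number correlated at -0.054 to 0.099, which does not exclude one.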
